A study of Mus musculus with 6 samples.

Results

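The interleukin and colony-stimulating factor receptor chains of macrophages were examined in bone marrow-derived macrophages (BMDM) with and without the PP2A catalytic subunit C. The chains were chosen by symbol, as *Il10ra*, *Il10rb*, *Il4ra*, *Il13ra1*, *Il6ra*, *Il2rg*, *Il17ra*, *Csf2ra*, *Csf2rb* and *Csf3r*, and all 10 were among the 55453 genes listed and the 13680 genes tested. The RNA-Seq compared 3 PP2Ac-KO libraries, from *LysMcrePP2Ac fl/fl* mice, with 3 PP2Ac-WT libraries, from WT mice, all on the C57BL/6 background. In PP2Ac-KO mice, *cre* driven by the lysozyme 2 promoter removes exon 1 of *Ppp2ca* in myeloid cells, and the WT mice came from a commercial supplier, so that effects of *cre*, of the floxed alleles or of the colony cannot be told apart from those of the deletion. The labels give no treatment or age. The study's text describes these BMDM as stimulated with cGAMP, a STING agonist, in both genotypes, and its mice as young adults of either sex. Nothing in the labels says whether the 3 libraries of a group came from separate mice, so p-values measure the spread between these libraries, which may be technical.

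Cytokine receptors of this kind have no kinase of their own. A chain that binds its ligand pairs with a shared chain, and most of these pairs carry JAK kinases that phosphorylate STAT factors, while the IL-17 receptor signals through the adaptor ACT1. *Il2rg* encodes the common gamma chain shared by the receptors for IL-2, IL-4, IL-7, IL-9, IL-15 and IL-21, and *Csf2rb* the common beta chain shared by the receptors for GM-CSF, IL-3 and IL-5. In macrophages, IL-10 signaling restrains inflammatory genes, IL-4 and IL-13 drive alternative activation, and GM-CSF and G-CSF act on growth and function of myeloid cells.

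Library totals ran from 35257156 to 47390899 counts. *Ppp2ca* was counted 33 to 47 times per PP2Ac-KO library and 8279 to 10654 times per PP2Ac-WT library, as the genotypes named in the labels would have it. At FDR under 0.05, 18.1% of all genes tested were higher in PP2Ac-KO and 19.0% lower. Of the 8 macrophage markers, 2 (*Fcgr1* and *Mertk*) were higher and 0 lower, so the share higher was not far from that of all genes. The summed level of the 8 was 8623 to 8733 CPM (PP2Ac-KO) against 7279 to 7840 CPM (PP2Ac-WT). CPM are counts scaled to the TMM-corrected library total. All 4 fibroblast markers were lower in PP2Ac-KO, with a summed level of 22.7 to 33.4 CPM against 74.9 to 117.7 CPM. All libraries carried RNA of 4 Y-linked genes (954 to 3404 counts each) and at most 3 counts of *Xist*, so the X-linked chains *Il2rg* and *Il13ra1* were compared between libraries with the same sex-linked RNA. Markers of dendritic cells, which carry several of the chains, were low but higher in PP2Ac-KO for 2 of 3 tested (*Clec9a*, *Siglech*), with a summed level of 1.87 to 2.88 against 0.954 to 1.69 CPM, and of the monocyte markers *Ly6c2* rose by 1.38 on the log2 scale (edgeR adjusted p = 0.00642, 9 to 36 counts) while *Ccr2*, at 466 to 801 counts, had a log2 fold change of 0.33 (adjusted p = 0.0563). The part of these cells in the increases of receptor chains was not tested. In bulk RNA, fewer cells of a type and less RNA per cell cannot be told apart.

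The chains with the largest change, *Il2rg* and *Il13ra1*, both lie on the X chromosome. The bases just upstream of their start sites are shown because these genes moved most and in the same direction. Sequences are from RefSeq on GRCm38.p6, which held upstream sequence for 6 of the 10 chains, and capitals mark CCGGAA, a core recognized by ETS factors. *Il2rg* is shown at chrX:101268256-101268505 on the minus strand and *Il13ra1* at chrX:36111858-36112107 on the plus strand.
Il2rg: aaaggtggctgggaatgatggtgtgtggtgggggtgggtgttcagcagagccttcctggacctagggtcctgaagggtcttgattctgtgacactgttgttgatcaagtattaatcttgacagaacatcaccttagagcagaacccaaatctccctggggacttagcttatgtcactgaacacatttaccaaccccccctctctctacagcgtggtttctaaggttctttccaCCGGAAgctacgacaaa
Il13ra1: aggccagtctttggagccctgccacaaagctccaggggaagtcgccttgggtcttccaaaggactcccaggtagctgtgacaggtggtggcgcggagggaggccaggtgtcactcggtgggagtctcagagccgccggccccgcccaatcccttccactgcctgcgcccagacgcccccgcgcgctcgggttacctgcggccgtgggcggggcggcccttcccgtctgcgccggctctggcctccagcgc
With both strands searched, the CCGGAA core was found in the *Il2rg* window and in 0 of the other 5, against 12.0% of 32851 upstream windows of 250 bases in the RefSeq table. TTCNNNGAA (the general STAT site), the STAT6 site with 1 more base in its spacer, and the IFN-stimulated response element (ISRE) were found on neither strand of the 6 windows, where 7.02%, 5.85% and 2.98% of all windows held them, so that no match overlapped another. The CCGGAA core was chosen after these sequences were seen, so its match in *Il2rg* cannot be weighed against the share of all windows. A match is a description of letters, and its absence covers only these bases.

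Of the 10 receptor chains, 5 were higher in PP2Ac-KO BMDM at FDR under 0.05 and 0 were lower, where 18.1% of all genes tested were higher, 19.0% lower and 37.1% called in either direction. The 5 were *Il2rg*, *Il13ra1*, *Csf3r*, *Il10ra* and *Il17ra*, with log2 fold changes of 1.21, 1.14, 0.58, 0.51 and 0.30. *Il2rg* and *Il13ra1* also passed the cutoffs of the study (FDR under 0.01 with log2 fold change above 1), as did 3.36% of all genes upward and, with 0 chains, 2.99% downward. *Il4ra*, *Il10rb*, *Csf2ra*, *Il6ra* and *Csf2rb* did not pass, with log2 fold changes of 0.21, 0.09, 0.14, -0.01 and -0.04. The median over the 10 was 0.25, and -0.02 over all genes tested. For 6 chains, the 5 that rose and *Il10rb*, every PP2Ac-KO library lay above every PP2Ac-WT library, as did 24.0% of all genes tested, and the reverse held for 0 chains and 26.8% of genes. With the replicate number as a block, a sixth chain, *Il4ra*, passed as higher and 0 as lower, where 24.4% of all genes passed as higher and 26.4% as lower.

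**Figure D1:**
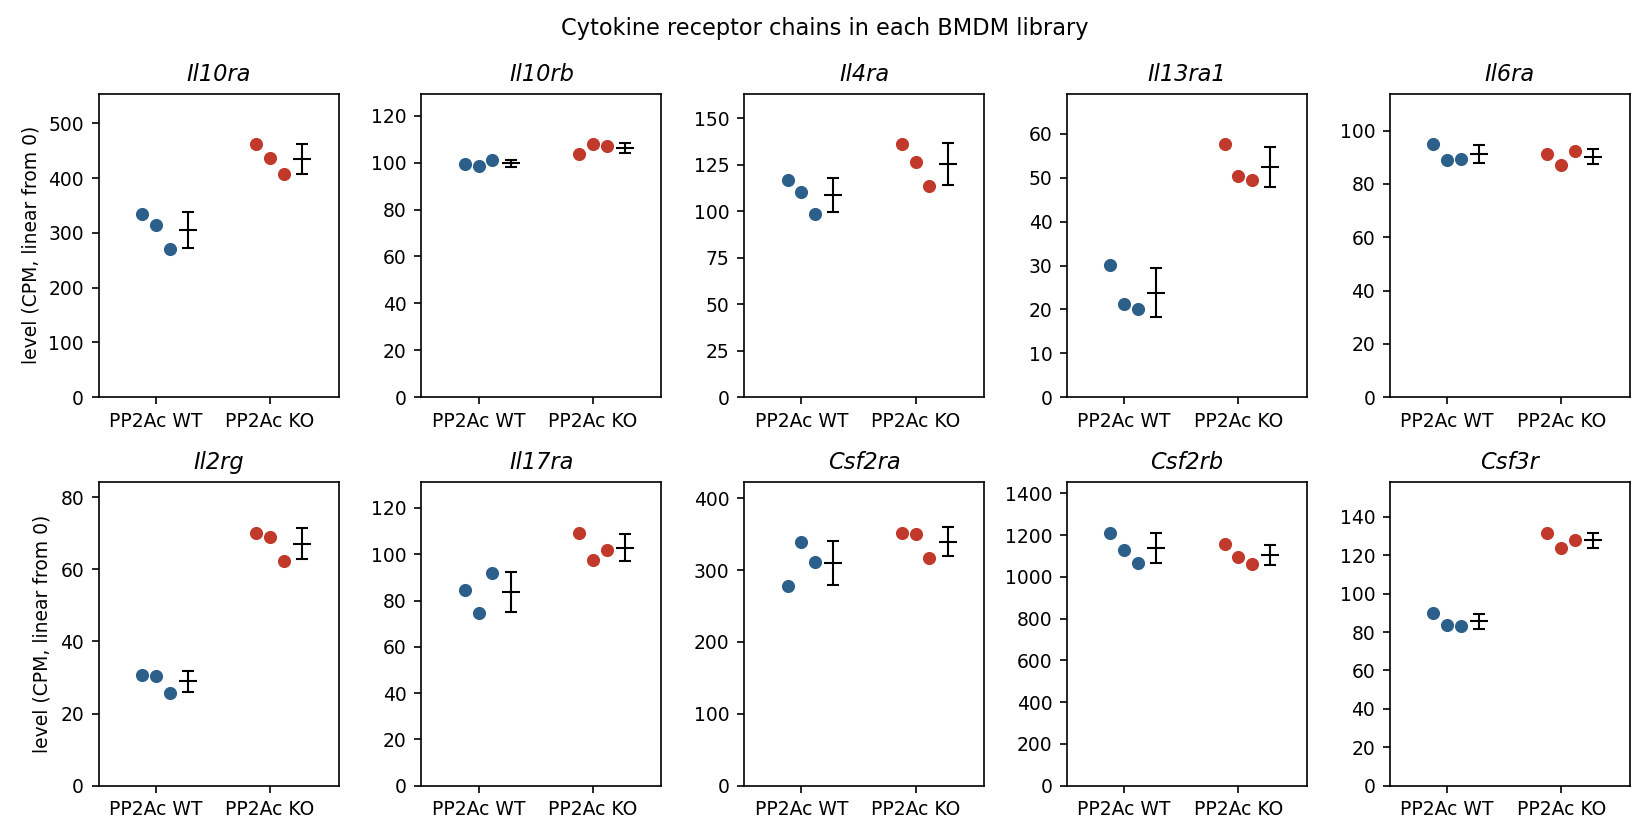
Level of each of the 10 receptor chains in each library, in CPM on a linear axis from 0, with points for the 3 libraries of a group in the order of their replicate numbers and a bar for the mean ± SD. The PP2Ac-KO libraries lie well above the PP2Ac-WT libraries for Il2rg (62.3 to 70.2 against 25.6 to 30.8 CPM) and Il13ra1 (49.5 to 57.7 against 20.1 to 30.1 CPM), while the groups overlap for Csf2rb, Il6ra, Csf2ra and Il4ra.

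**Figure D2:**
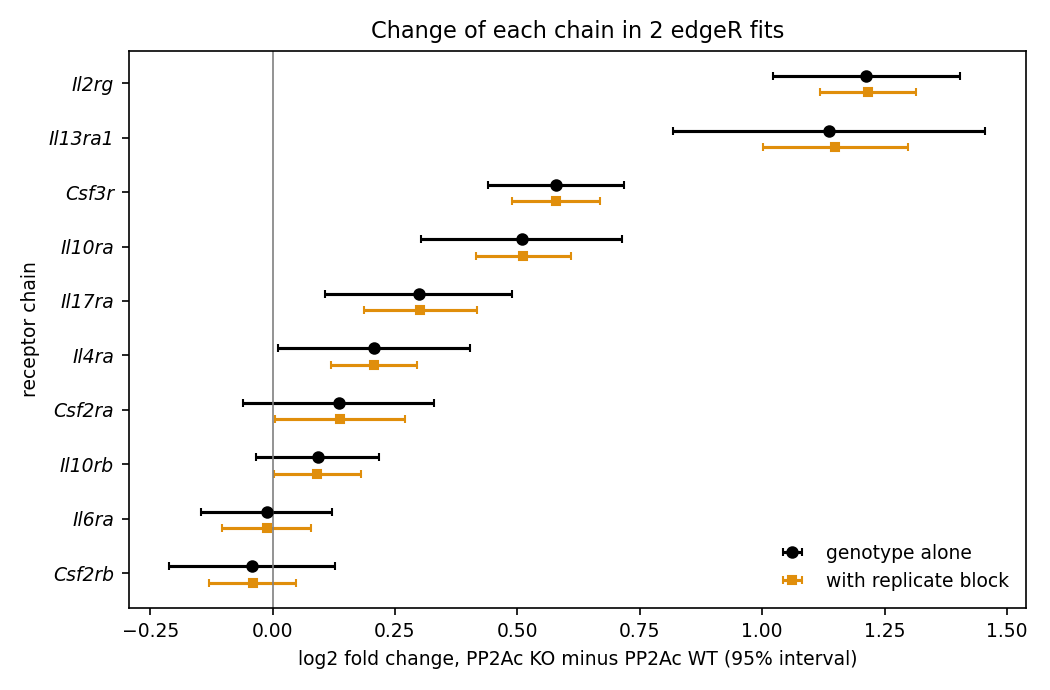
Log2 fold change of each chain, PP2Ac-KO minus PP2Ac-WT, with its 95% interval, from edgeR with genotype alone (circles) or blocked on replicate number (squares). Estimates run from -0.04 for Csf2rb to 1.21 for Il2rg with genotype alone, and the block narrows the intervals with little change in the estimates.

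*Il2rg* (chrX:101264378-101268255, minus strand) had 2977, 2275 and 2600 counts in PP2Ac-KO libraries 1, 2 and 3, against 1530, 1325 and 1072 in PP2Ac-WT. Scaled, these were 70.2, 68.9 and 62.3 CPM against 30.8, 30.5 and 25.6 CPM. The lowest PP2Ac-KO library was above the highest PP2Ac-WT library, and the spread inside a group was small beside the gap. The mean rose from 28.9 ± 2.93 to 67.1 ± 4.23 CPM (SD, n = 3), 2.32-fold (95% interval 2.03 to 2.65), or 1.21 ± 0.08 (SE) as log2 fold change (log2FC; edgeR adjusted p = 5.40e-05, Benjamini-Hochberg). Its exons share 728 bases with *Gm20489*, an overlapping gene on the same strand that had 0 counts in every library, so that reads on these bases may have been assigned in a way the counts do not show. Markers of T and NK cells, which also carry the gamma chain, had a summed level of 0.0303 to 0.212 CPM (PP2Ac-KO) against 0 to 0.0690 CPM (PP2Ac-WT).

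The other chains of the receptors that share the gamma chain did not move together. *Il15ra*, the IL-15 receptor alpha chain, rose from 24.5 ± 3.78 to 59.7 ± 6.12 CPM (log2FC 1.28, edgeR adjusted p = 9.17e-05), and *Il21r*, the IL-21 receptor, from 49.6 ± 7.40 to 79.1 ± 9.74 CPM (0.67, adjusted p = 0.00206). *Il7r*, the IL-7 receptor alpha chain, fell from 389.1 ± 25.9 to 323.3 ± 15.1 CPM (-0.27, adjusted p = 0.0187). *Il2rb*, a chain of both the IL-2 and the IL-15 receptor, had only 3 to 11 counts per library. *Il2ra* of the IL-2 receptor had 1 to 14 and *Il9r* at most 2, so *Il2rb*, *Il2ra* and *Il9r* could not be tested. *Jak3*, the kinase bound to the gamma chain, rose by a log2 fold change of 0.48 (adjusted p = 6.00e-04). Among the ligands, *Il15* rose from 70.2 ± 11.7 to 139.6 ± 5.27 CPM (0.99, adjusted p = 2.09e-04), and *Il2*, *Il4*, *Il9* and *Il21* had at most 1 count per library.

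*Il13ra1* (chrX:36112110-36171259, plus strand), the chain that joins *Il4ra* in the type II receptor for IL-4 and IL-13, had 2447, 1663 and 2064 counts in PP2Ac-KO and 1497, 928 and 841 in PP2Ac-WT. These were 57.7, 50.4 and 49.5 CPM against 30.1, 21.3 and 20.1 CPM. PP2Ac-WT library 1 stood above the other two of its group, with the largest spread of any chain (a coefficient of variation of 23.0%), and still lay below all PP2Ac-KO libraries. The mean rose from 23.8 ± 5.48 to 52.5 ± 4.50 CPM (SD, n = 3), 2.20-fold (95% interval 1.76 to 2.74), with log2FC 1.14 ± 0.14 (SE; edgeR adjusted p = 3.79e-04). *Il13ra2*, the decoy receptor for IL-13, had at most 4 counts in any library.

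*Il4ra* (chr7:125552120-125579474, plus strand), the ligand-binding chain for IL-4 in both receptor types, had 5776, 4175 and 4751 counts in PP2Ac-KO and 5796, 4810 and 4138 in PP2Ac-WT. Scaled, these were 136.2, 126.5 and 113.9 CPM against 116.7, 110.6 and 98.7 CPM. In both genotypes library 1 was highest and library 3 lowest, and the groups overlapped by the single PP2Ac-KO library 3. The log2FC was 0.21 (SE 0.09, 95% interval 0.01 to 0.40), which did not pass over all genes (edgeR adjusted p = 0.0915), while the fit with the replicate block gave 0.21 (SE 0.04, adjusted p = 0.00122). It also passed without PP2Ac-KO library 3 (adjusted p = 0.0443) and without PP2Ac-WT library 1 (adjusted p = 0.0395).

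Of the 9 tested genes known to respond to IL-4 and IL-13, 3 were higher and 1 lower in PP2Ac-KO (median log2FC 0.25). Of all genes tested, 18.1% were higher and 19.0% lower. *Chil3*, a chitinase-like protein, rose by 1.46 (edgeR adjusted p = 0.00891) but had only 7 to 36 counts per library. The study also used *Chil3* as a marker of classical monocytes. *Mrc1*, a well-counted gene of this list (4858 to 8782 counts), had a log2 fold change of -0.09 (adjusted p = 0.629). *Clec10a*, a lectin, rose from 4.32 ± 1.17 to 9.24 ± 2.05 CPM (1.09, adjusted p = 0.00359), and *Tgm2*, transglutaminase 2, by 0.40 (adjusted p = 0.0249). *Fn1*, fibronectin, fell by 1.68 on the log2 scale (adjusted p = 1.45e-04); fibroblasts also express it, and the fibroblast markers were lower in the same libraries, whose part in this decrease was not tested. The defining genes *Arg1* and *Retnla* had 6 to 15 and at most 1 counts per library. *Il4* and *Il13* had 0 counts in every library, which with 3 counts as the smallest detectable signal allows a level of up to 0.0604 to 0.0909 CPM, counting error only.

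*Il10ra* (chr9:45253837-45269149, minus strand), which binds IL-10, had 19605, 14395 and 16980 counts in PP2Ac-KO and 16586, 13638 and 11314 in PP2Ac-WT. These were 462.1, 436.1 and 406.9 CPM against 333.9, 313.6 and 269.9 CPM, with no overlap. The mean rose from 305.8 ± 32.7 to 435.0 ± 27.6 CPM (SD, n = 3), 1.42-fold (95% interval 1.23 to 1.64), with log2FC 0.51 ± 0.09 (SE; edgeR adjusted p = 0.00222). Its partner *Il10rb* (chr16:91406164-91425834, plus strand), shared with the receptors for IL-22 and IFN-λ, was among the steadiest chains. It stood at 103.7, 107.9 and 107.1 CPM (PP2Ac-KO) against 99.5, 98.4 and 101.1 CPM (PP2Ac-WT). The groups did not overlap, yet the difference was small, with a log2 fold change of 0.09 (95% interval -0.03 to 0.22, edgeR adjusted p = 0.228; with replicate block, 0.0807). *Il10rb* shares 569 exon bases with *Gm21970*, an overlapping gene on its strand with 0 counts. The other chains that pair with it were close to absent, with 0 counts of *Il22ra1*, at most 3 of *Il20ra* and at most 4 of *Ifnlr1* in any library.

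*Il10* itself rose from 6.93 ± 2.34 to 23.1 ± 3.09 CPM (log2FC 1.73 ± 0.21, SE; edgeR adjusted p = 3.10e-04), the largest increase among the 5 ligands tested. *Il6* rose from 3.342 ± 1.07 to 7.60 ± 1.56 CPM (1.18, adjusted p = 0.00342). Of 11 tested genes that respond to IL-10 or IL-6, 9 were higher and 0 lower in PP2Ac-KO (median log2FC 0.74). Of all genes tested, 18.1% were higher and 19.0% lower. This list shares *Fcgr1* and *Mertk* with the macrophage markers and *Socs3* with the signaling genes below, so the counts are not separate. *Socs3*, a feedback inhibitor of IL-6 signaling through gp130, rose from 19.5 ± 1.72 to 52.9 ± 9.60 CPM (1.44, adjusted p = 8.21e-05). *Il1rn*, the IL-1 receptor antagonist, rose by 1.26 (adjusted p = 7.36e-04), *Bcl3*, a nuclear NF-κB cofactor, by 1.09 (adjusted p = 8.39e-05), and *Dusp1*, a MAPK phosphatase, by 1.05 (adjusted p = 1.69e-04). Like the other gene lists, this one was chosen with earlier results of these data known, so its counts are a description. Many of these genes also respond to other stimuli of macrophages.

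*Il6ra* (chr3:89864059-89913196, minus strand), the IL-6 binding chain, stood at 91.4, 87.2 and 92.3 CPM (PP2Ac-KO) against 94.9, 88.8 and 89.4 CPM (PP2Ac-WT). The groups lay on top of each other. The log2FC was -0.01 (SE 0.06, 95% interval -0.15 to 0.12, edgeR adjusted p = 0.890), a fold of 0.991 with an interval of 0.904 to 1.09. The sign of this estimate turned under RLE scaling. The antisense genes *Gm42809* at *Il6ra* and *Gm44876* at *Il4ra* share 242 and 571 exon bases with them and had at most 1 count per library. *Il6st*, which encodes the signaling partner gp130, stood at 135.0 ± 13.0 CPM (PP2Ac-KO) against 127.4 ± 15.4 CPM (PP2Ac-WT), with log2FC 0.08 (adjusted p = 0.547). Among other chains that pair with gp130, *Osmr*, the oncostatin M receptor, and *Il27ra*, the IL-27 receptor, were lower, by log2 fold changes of -1.59 and -0.73 (adjusted p = 0.00168 and 0.0295), at 12 to 84 and 30 to 80 counts per library.

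*Il17ra* (chr6:120463247-120487559, plus strand), shared by the receptors for the IL-17 family, had 4639, 3221 and 4246 counts in PP2Ac-KO and 4195, 3243 and 3856 in PP2Ac-WT. Scaled, these were 109.4, 97.6 and 101.8 CPM against 84.4, 74.6 and 92.0 CPM, a narrow gap without overlap. The mean rose from 83.7 ± 8.73 to 102.9 ± 5.97 CPM (SD, n = 3), 1.23-fold (95% interval 1.08 to 1.40), with log2FC 0.30 ± 0.08 (SE; edgeR adjusted p = 0.0214). This call was lost without PP2Ac-KO library 1 (log2 fold change 0.25, adjusted p = 0.0892), PP2Ac-KO library 3 (0.31, adjusted p = 0.0546) or PP2Ac-WT library 2 (0.22, adjusted p = 0.0795). *Il17rc*, which joins *Il17ra* in the receptor for IL-17A, had only 5 to 27 counts per library, log2FC -0.94 ± 0.41 (SE; edgeR adjusted p = 0.101). *Il17rb* had 0 counts and *Il17re* at most 2. *Il17rd* fell by 1.28 on the log2 scale (adjusted p = 0.00508) at 11 to 47 counts, and IL-17A (*Il17a*) was at 0 counts in every library.

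*Csf3r* (chr4:126024550-126044440, plus strand), the G-CSF receptor, which works as a pair of identical chains, had 5593, 4096 and 5331 counts in PP2Ac-KO and 4471, 3645 and 3479 in PP2Ac-WT. These were 131.8, 124.1 and 127.8 CPM against 90.0, 83.8 and 83.0 CPM. The libraries of each group lay close together, and the groups were far apart. The mean rose from 85.6 ± 3.83 to 127.9 ± 3.88 CPM (SD, n = 3), 1.49-fold (95% interval 1.36 to 1.65), with log2FC 0.58 ± 0.06 (SE; edgeR adjusted p = 1.90e-04). Of its 50-base windows, 10.5% also occur in the pseudogene *AC105061.2*, which had 1 to 3 counts per library. *Csf3r* is best known from neutrophils. The 9 neutrophil markers had a summed level of 0.943 to 0.9996 CPM in PP2Ac-KO and 0.705 to 1.15 CPM in PP2Ac-WT, and 5 of them had at most 3 counts in any library. The 1 that could be tested, *S100a8*, had a log2 fold change of -0.02 (adjusted p = 0.953). *Csf3*, the ligand of *Csf3r*, had at most 2 counts.

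*Csf2ra* (chr19:61223957-61228429, minus strand), the GM-CSF binding chain, stood at 352.0, 349.9 and 316.7 CPM (PP2Ac-KO) against 277.8, 339.1 and 310.6 CPM (PP2Ac-WT). PP2Ac-WT library 1 was the lowest and the other libraries overlapped. The log2FC was 0.14 (SE 0.09, 95% interval -0.06 to 0.33, edgeR adjusted p = 0.253; with replicate block, 0.0769). *Csf2rb* (chr15:78325752-78353847, plus strand) was the most counted chain, with 1158, 1095 and 1062 CPM (PP2Ac-KO) against 1212, 1130 and 1069 CPM (PP2Ac-WT). The groups overlapped almost fully, with log2FC -0.04 ± 0.07 (SE; 95% interval -0.21 to 0.13, adjusted p = 0.699). *Il3ra*, the IL-3 binding chain that uses the same beta chain, rose from 91.8 ± 3.71 to 124.8 ± 8.42 CPM (0.44, adjusted p = 0.00117), and *Il5ra* had 2 to 9 counts. *Csf2*, *Il3* and *Il5* had at most 2 counts in any library. *Csf1r*, the M-CSF receptor that marks macrophages and is a kinase of its own, was at 3011 ± 179 CPM in PP2Ac-WT and 3405 ± 137 CPM in PP2Ac-KO (0.18, adjusted p = 0.0976; with replicate block, 0.0028).

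*Csf2rb* has a close paralog, *Csf2rb2*, which in mice encodes a beta chain used for IL-3 alone, and which lies beside it on chromosome 15 (chr15:78282507-78305721, minus strand). Their coding sequences in GENCODE M21 (Csf2rb-206 and Csf2rb2-201) are 95.2% identical over 2631 aligned bases, and the longest identical run is 242 bases. The ungapped 60-base window with the most differences, 13, is shown because it is where reads tell the genes apart best. It spans coding bases 304 to 363 of *Csf2rb* and 307 to 366 of *Csf2rb2*, and capitals mark the bases that differ.
Csf2rb: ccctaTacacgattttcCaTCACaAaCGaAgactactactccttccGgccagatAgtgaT
Csf2rb2: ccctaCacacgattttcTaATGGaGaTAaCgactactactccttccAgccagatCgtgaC
Of the 50-base windows in *Csf2rb* transcripts, 12.3% also occur in those of *Csf2rb2*, and 2.30% of 150-base windows do. The counts of *Csf2rb2* were nearly those of *Csf2rb*, with a difference of -0.855% to 3.41% across the 6 libraries, with 49125, 35830 and 45291 counts in PP2Ac-KO and 60393, 49404 and 46342 in PP2Ac-WT. The split of reads between the genes is therefore uncertain. Summed, the genes had log2FC -0.05 ± 0.07 (SE; edgeR adjusted p = 0.649).

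Compared per length of exon (RPKM, with TMM-scaled totals), the levels of the chains differed over a wide range. In PP2Ac-WT the order from high to low was *Csf2rb* (156.3 ± 9.88 RPKM), *Csf2ra* (107.7 ± 10.7), *Il10ra* (87.4 ± 9.35), *Il10rb* (26.2 ± 0.363), *Csf3r* (23.7 ± 1.06), *Il4ra* (18.1 ± 1.52), *Il2rg* (12.1 ± 1.23), *Il6ra* (10.5 ± 0.391), *Il17ra* (9.66 ± 1.01) and *Il13ra1* (6.42 ± 1.48 RPKM; SD, n = 3). The ranges of *Il2rg* and *Il6ra*, and of *Il6ra* and *Il17ra*, overlapped, and no other neighbors in this order did. In PP2Ac-KO, *Il10ra* stood at 124.4 ± 7.90 RPKM beside *Csf2ra* at 118.3 ± 6.90, with overlapping ranges. *Csf3r* stood at 35.4 ± 1.08 RPKM, followed by *Il2rg* at 28.1 ± 1.77 and *Il10rb* at 27.9 ± 0.582, whose ranges overlapped. *Il13ra1*, the lowest chain in PP2Ac-WT, had 14.1 ± 1.21 RPKM in PP2Ac-KO, above *Il17ra* (11.9 ± 0.689) and *Il6ra* (10.4 ± 0.316). The length used was the union of exons over all annotated transcripts, 8 for *Csf2rb*. The level of *Csf2rb*, and so its place in the order, also rests on the uncertain split of reads with *Csf2rb2*.

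The balance between chains of a receptor was measured as the ratio of their counts inside each library, which no scaling of libraries can change. Per exon base, *Il4ra* exceeded *Il2rg*, its partner in the type I IL-4 receptor, in PP2Ac-WT, with ratios of 1.51, 1.44 and 1.54. In PP2Ac-KO the ratios were 0.772, 0.730 and 0.727, so that *Il2rg* was ahead per exon base in all 3 libraries. In counts, *Il4ra* exceeded *Il2rg* in every library, 1.83 to 1.94 times in PP2Ac-KO and 3.63 to 3.86 times in PP2Ac-WT. Which chain is ahead thus rests on the lengths used, and 728 of the *Il2rg* bases are shared with *Gm20489*. The log2 ratio of *Il4ra* to *Il2rg* was 1.01 lower in PP2Ac-KO, whatever the lengths, a 2.01-fold shift toward *Il2rg*. The ratio of *Il4ra* to *Il13ra1* was 2.39, 3.21 and 3.04 in PP2Ac-WT and 1.46, 1.55 and 1.42 in PP2Ac-KO, a 1.93-fold shift toward *Il13ra1*. The ratio of *Il10ra* to *Il10rb* was 3.65, 3.47 and 2.90 in PP2Ac-WT and 4.85, 4.398 and 4.14 in PP2Ac-KO, 1.34-fold higher.

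Between the growth factor receptors, the ratio of *Csf3r* to *Csf2rb* was 0.1497, 0.1496 and 0.157 in PP2Ac-WT and 0.230, 0.229 and 0.243 in PP2Ac-KO, 1.54-fold higher. These 4 ratios did not overlap between genotypes, and neither did that of *Il17ra* to *Il17rc*, which rests on 5 to 27 counts of *Il17rc*. For each of the 5, the two-sided exact permutation test over 6 libraries gave p = 0.1, the smallest p that 3 against 3 allows (adjusted over 7 ratios, 0.14), so none could pass 0.05. The ratios of *Csf2ra* to *Csf2rb* (1.13-fold higher, exact permutation p = 0.2) and *Il6ra* to *Il6st* (0.934-fold, exact permutation p = 0.4) overlapped. The values of the ratios to *Csf2rb* rest on the uncertain split of its reads with *Csf2rb2*.

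**Figure D3:**
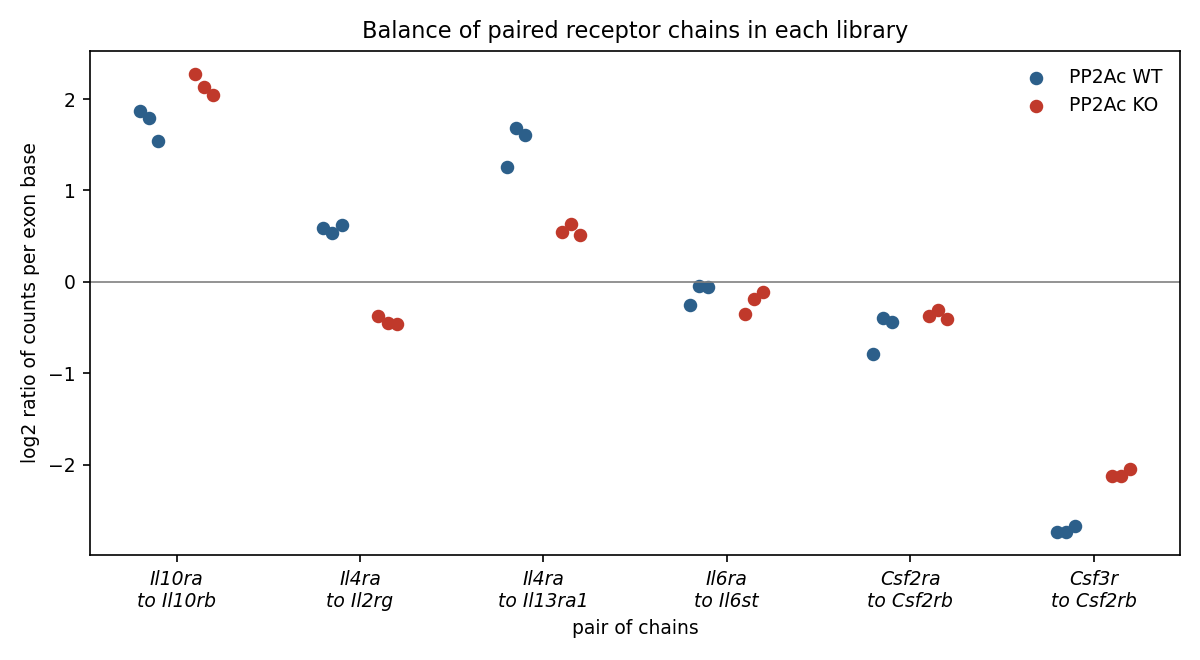
Log2 ratio of counts per exon base for 6 pairs of chains, with a point for each of the 3 PP2Ac-WT (left) and 3 PP2Ac-KO (right) libraries and a line at 0, where the chains are equal. The ratio of Il4ra to Il2rg lies above the line in PP2Ac-WT and below it in PP2Ac-KO, while the points of Il6ra to Il6st and Csf2ra to Csf2rb overlap. The side of the line depends on the exon lengths used, and the distance between genotypes does not.

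Of 36 other cytokine receptor chains, 23 could be tested, of which 6 were higher and 7 lower in PP2Ac-KO (median log2FC -0.05). Among all genes tested, 18.1% were higher and 19.0% lower. With the replicate block, 10 of these chains were higher and 8 lower, beside 24.4% and 26.4% of all genes. Beside *Il15ra*, *Il21r* and *Il3ra*, the increases were in *Il12rb1* (log2FC 2.32, edgeR adjusted p = 3.30e-04, at 11 to 86 counts), a chain for IL-12 and IL-23, in *Il18rap* (1.04, adjusted p = 0.0131), a chain of the IL-18 receptor, and in *Il1rap* (0.50, adjusted p = 0.0125), the IL-1 receptor accessory protein. The decreases included *Il1rl1*, the IL-33 receptor (-0.96, adjusted p = 0.00926) and *Il1r1*, the IL-1 receptor (-0.93, adjusted p = 0.00285). Apart from *Il7r*, the genes that fell were counted at most 258 times per library, and fibroblast markers fell in the same libraries, whose part was not tested.

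Of 23 genes of the signaling machinery behind the receptors, all tested, 12 were higher and 1 lower (median log2FC 0.35). The shares over all genes tested were 18.1% higher and 19.0% lower, and this list too was chosen with earlier results known. *Jak2*, the kinase bound to the beta chain and the G-CSF receptor, rose from 156.7 ± 42.5 to 356.2 ± 46.2 CPM (1.18, edgeR adjusted p = 8.19e-04), and *Cish*, a STAT5 target and inhibitor, by 1.05 (adjusted p = 8.12e-04). The kinase *Lyn* rose by 1.07 (adjusted p = 4.36e-04). *Irs2*, an adaptor of IL-4 signaling, fell by 0.45 on the log2 scale (adjusted p = 0.00625). *Stat6*, the factor of the IL-4 and IL-13 receptors, had a log2 fold change of 0.11 (adjusted p = 0.173). Of 8 tested genes that respond to GM-CSF or G-CSF, 5 were higher, *Cish* again among them, and 1 lower. This list also shares *Csf2rb2*, which was not called, with the other receptor chains, so the counts are not separate. *Pim1*, a kinase induced by STAT5, rose by 1.03 (adjusted p = 1.33e-04), and *Itgax*, which encodes CD11c, fell by 0.69 on the log2 scale (adjusted p = 1.26e-04).

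**Figure D4:**
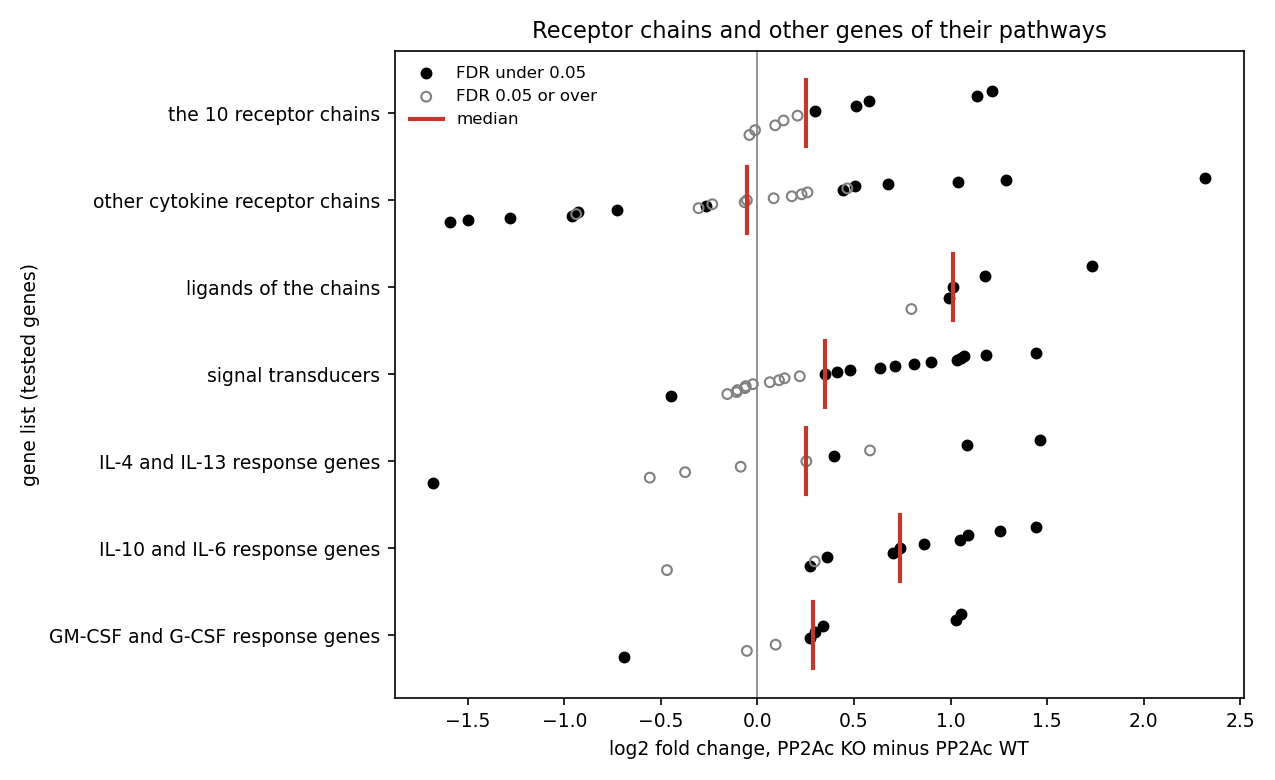
Log2 fold change of each tested gene, PP2Ac-KO minus PP2Ac-WT, for the 10 receptor chains and for 6 lists of related genes, with filled points for FDR under 0.05, open points for the rest and a line at each list's median. Medians run from -0.05 for other cytokine receptor chains to 1.01 for the ligands, and the receptor chains have 5 filled points, all to the right of 0.

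Of 22 ligands of these receptors, 5 could be tested, and *Il10*, *Il6*, *Csf1* and *Il15* were higher, with 0 lower. Over all genes tested, the shares were 18.1% higher and 19.0% lower. *Csf1* (M-CSF), which acts on a receptor outside the 10 chains, rose from 69.6 ± 18.0 to 140.4 ± 14.7 CPM (1.01, edgeR adjusted p = 0.00127). *Il7* had 18 to 57 counts and a log2 fold change of 0.80 (adjusted p = 0.0594; with replicate block, 0.0140). Of the 21 ligands listed in the table, 16 had at most 3 counts in any library.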

How the data were processed

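RNA was measured in 6 BMDM libraries, 3 PP2Ac-KO and 3 PP2Ac-WT, grouped by their titles. The authors deposited 1 table of read counts per gene, whole numbers without normalization. Per the labels, libraries were poly(A) selected, strand-specific and read from both ends, and the submitters' processing notes name mm10 (GRCm38), fastp 0.20.0, kallisto 0.46.1, STAR 2.7.1a, HTSeq 0.11.2, edgeR 3.34.0 and limma 3.48.3. Which tool made the counts, the annotation and the strand setting are not given in the sources used here. Counts were tested in R 4.3.3 with edgeR 4.0.16 (filterByExpr with a minimum count of 10 and total of 15, TMM, glmQLFit and glmQLFTest, genotype alone) with adjustment over 13680 genes, and intervals are the log2 fold change ± t times its standard error, from the F statistic. The call threshold was FDR under 0.05. RPKM used exon length from GENCODE M21 (GRCm38), and shared windows its transcripts. Ratios of chains added 0.5 to each count. The fit was tested on simulated data.

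Deviations from the group means were shared by libraries of equal replicate number (correlations across genes of 0.446, 0.275 and 0.459 for numbers 1, 2 and 3). The pairing comes from the numbers in the labels, and no source says what they share. Alternatives were RLE and upper-quartile scaling, 2 other filters, the replicate block, DESeq2 1.42.0, limma-voom 3.58.1, each library left out, *Csf2rb* summed with *Csf2rb2*, and for ratios a pseudocount of 5. The members and lists were chosen with earlier results of these data known, and the CCGGAA motif after the sequences were seen. Named were all 10 chains, *Ppp2ca*, partners of the chains, up to 5 called genes per direction of each list by size of change, and the 3 genes closest to *Il2rg*. Not every gene under this rule is given, some results are not reported here, and low-count partners and defining response genes were named for their role after their values were seen. Intervals and floors cover counting error or spread between libraries only.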

Additional observations from a re-analysis of the deposited data

How the results depend on the processing

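The increases of *Il2rg*, *Il13ra1*, *Csf3r* and *Il10ra* passed FDR under 0.05 in all 13 alternatives run for each, with log2 fold changes of 1.13 to 1.27, 1.03 to 1.34, 0.52 to 0.62 and 0.43 to 0.58. *Il17ra* passed in 10 of 13 (0.22 to 0.37) and *Il4ra* in 3 of 13 (0.14 to 0.28). The number of chains higher ran from 4 to 6 with a library left out and was 6 with the replicate block, which changed the call of *Il4ra* and of no other chain. *Il10rb*, *Csf2ra*, *Il6ra* and *Csf2rb* passed in 0 of their alternatives. The sign of *Il6ra* turned under RLE (0.0097) and DESeq2 (0.0098), and leaving out 1 library gave -0.029 to 0.020. Leaving out 1 library gave *Csf2rb* values of -0.083 to 0.0077. The cause of these sign changes was not tested. Over all genes, RLE put the median log2FC at -0.0021 and upper-quartile scaling at -0.09.

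Among the other lists, 10 other receptor chains were higher in place of 6 with the replicate block and with no filter on low counts. With no filter, 24686 genes were tested in place of 13680 and 2559 of them were higher, so its counts rest on a wider set of genes. The lower count on the signal transducer list was 2 in place of 1 under upper-quartile scaling and the block. The lower count on the IL-4 and IL-13 list was 2 in place of 1 under both of these and 3 with no filter, and that on the IL-10 and IL-6 list 1 in place of 0 with the block and with no filter. With 1 library left out, the lower counts ran from 4 to 8 for the other receptor chains (7 in the full fit, and 4 without PP2Ac-KO replicate 2), 1 to 2 for the transducers, 1 to 2 for the IL-4 and IL-13 genes and 0 to 1 for the IL-10 and IL-6 genes. The cause was not tested. In the ratios, 0 changed sign with pairing by replicate number, a pseudocount of 5 or a library left out. These settings have too few libraries for any ratio to pass 0.05. The replicate block left each mean difference as it was (-1.01 for *Il4ra* to *Il2rg*, exact paired permutation p = 0.25, the smallest that 3 pairs allow). The log2 difference of *Il17ra* to *Il17rc*, 1.25 with all libraries, ran from 0.86 to 1.45 with a library left out and was 0.94 with the pseudocount of 5. Genes with few counts, such as *Il17rc* (5 to 27 per library), are limited by depth.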

Other observations

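Library 1 was the highest of its group for 8 of the 10 chains in PP2Ac-KO and for 7 of 10 in PP2Ac-WT, and of all genes tested for 35.6% and 40.5%. Same-numbered libraries of both genotypes deviated from their group means in the same direction for 9 chains (number 1), 9 chains (number 2) and 7 chains (number 3) of the 10, and for 67.5%, 64.0% and 66.5% of all genes tested. The coefficient of variation was 2.09% to 8.91% across the chains in PP2Ac-KO, against 1.39% (*Il10rb*) to 23.0% (*Il13ra1*) in PP2Ac-WT.

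The genes whose log2 CPM followed *Il2rg* most closely over the 6 libraries were *Tmem219*, *P2rx4* and *Triobp*, with Pearson's r of 0.999 each, as a description. Their log2 fold changes were 0.71, 0.32 and 0.74, smaller than the 1.21 of *Il2rg*. With 2 groups that stand apart, 1284 genes had an r over 0.95, so that this likeness is shared by many genes.

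Summed markers of mast cells and basophils were at 1.03 to 1.65 CPM in PP2Ac-KO and 1.23 to 1.72 CPM in PP2Ac-WT, those of B cells at 0.684 to 1.34 and 0.501 to 0.584 CPM, and those of erythroid cells at 0.0707 to 0.0909 and 0.0460 to 0.143 CPM.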
